A study of Mus musculus with 4 samples.

Results

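The transcriptome of the eye 7 days after light exposure was set against that 3 h after it, in mice that lack Abca4 and Rdh8, leaving the unexposed control out of the comparison. These are 2 of the 4 samples of the series. All groups carry the genotype Abca4-/-Rdh8-/-, were 6 weeks old and are described as whole eyes of 3 mice each. The early sample was taken 3 h and the late sample 7 days after light, another light sample at 24 h, and the control had no light. The labelled protocol also speaks of retinas, and the design text of triplicates, but for each gene the table gives a single value per condition, so no difference below has a replicate check and no test was run. The sources used here do not give strength and length of the light, time of day or sex of the animals.

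Abca4 is a flippase of the photoreceptor disc membrane and Rdh8 a retinol dehydrogenase of the outer segment, and together they clear the all-trans-retinal that forms in photoreceptors in the light. Eyes without both keep this reactive aldehyde for longer after bright light, and photoreceptors of such mice are injured by exposures that other mice tolerate. Injury of the retina is known to be followed first by a brief transcription factor response, then by reactivity of Müller glia, and later by activation of microglia and entry of macrophages that take up debris. The question here is which transcripts differed between an early and a late time after light.

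Values are FPKM (fragments scaled to transcript length and to the size of the library). Changes are differences of log2(FPKM + 1), 7 days minus 3 h, which shrinks the differences of weakly expressed genes. Of 22558 listed genes, 724 with names of small RNA genes (starting with Snora, Snord, Scarna, Mir or Rnu) were set aside, and 14074 of the others were kept because their FPKM averaged 1 or more across all 4 samples. Depth was estimated from the median of olfactory receptor genes above 0 in a single sample, each taken to hold 1 fragment. By this estimate 1 fragment was worth about 0.0467 FPKM at 3 h and 0.0255 FPKM at 7 days, so the late sample would be the deeper one. The estimate takes each value as 1 library, which is not stated. Without the added 1, the counting error of a log2 ratio is then about 0.39 log2 units at 1 FPKM and 0.17 at 5 FPKM. It is 0.087 at 20 FPKM and 0.039 at 100 FPKM, for a gene of similar length. The added 1 makes the error of a change smaller, mostly at low levels, and the errors printed with single genes below include it. Neither kind of error covers the spread between animals. Lens genes took 20.9% of all FPKM at 3 h and 23.9% at 7 days. Rod, lens, pigment epithelium and surface epithelium genes were all present at both times. Abca4 was at 40.6 FPKM at 3 h and 37.4 at 7 days, beside 56.3 in the control and 34.3 at 24 h. Rdh8 was at 14.2 FPKM at 3 h and 11.02 at 7 days, beside 10.5 in the control and 11.9 at 24 h. These are values of the whole gene and do not show whether the deleted part was transcribed.

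Transcripts of the Y chromosome were present in the 7-day sample and next to absent in the other 3. Of 8 Y-linked genes, 7 were listed at 0 at 3 h, and the 8 together summed to 0.00591 FPKM at 3 h and 18.7 at 7 days, beside 0 in the control and 0.0189 at 24 h. Eif2s3y, Ddx3y, Uty and Kdm5d were at 6.80, 6.59, 3.68 and 1.38 FPKM at 7 days. Xist, the RNA that coats the inactive X chromosome, was at 53.8 FPKM at 3 h and 37.1 at 7 days. It was thus present at 7 days beside the Y-linked transcripts, and how many mice of that sample were male is not given. The X-linked genes Ddx3x (126 and 91.2 FPKM), Kdm5c (30.3 and 21.8 FPKM) and Kdm6a (15.8 and 11.6 FPKM), known to be expressed from both X chromosomes, were lower in the late sample, with changes of -0.46, -0.46 and -0.41. Sex and time thus cannot be told apart in any difference described here, nor where the 7-day value is set beside the control or the 24 h value.

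Most genes were at similar levels in both samples. The median change over the kept genes was -0.0038, 71.7% lay within 0.2 log2 units of 0 and 96.0% within 0.5. By any amount, 49.2% were above 0 and 50.8% below, the shares to set beside the counts of each list below. At 7 days 24 genes (0.171% of those kept) were higher by at least 1 log2 unit and 45 (0.32%) were lower. Some of these genes were kept only through the sample in which they were high, their other 3 values averaging under 1 FPKM, and so had to differ. These were Eif2s3y and Ddx3y among the 24 and, among the 45, Arc, Cidec, Lif, Pck1, Hp and Agxt2l1 (6 genes). Protein-coding genes made up 21 of the 24 and 39 of the 45. With a mean FPKM of at least 5, 12 genes (0.115% of 10393) were higher and 32 (0.308%) lower, so the higher genes more often had low levels.

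**Figure D1:**
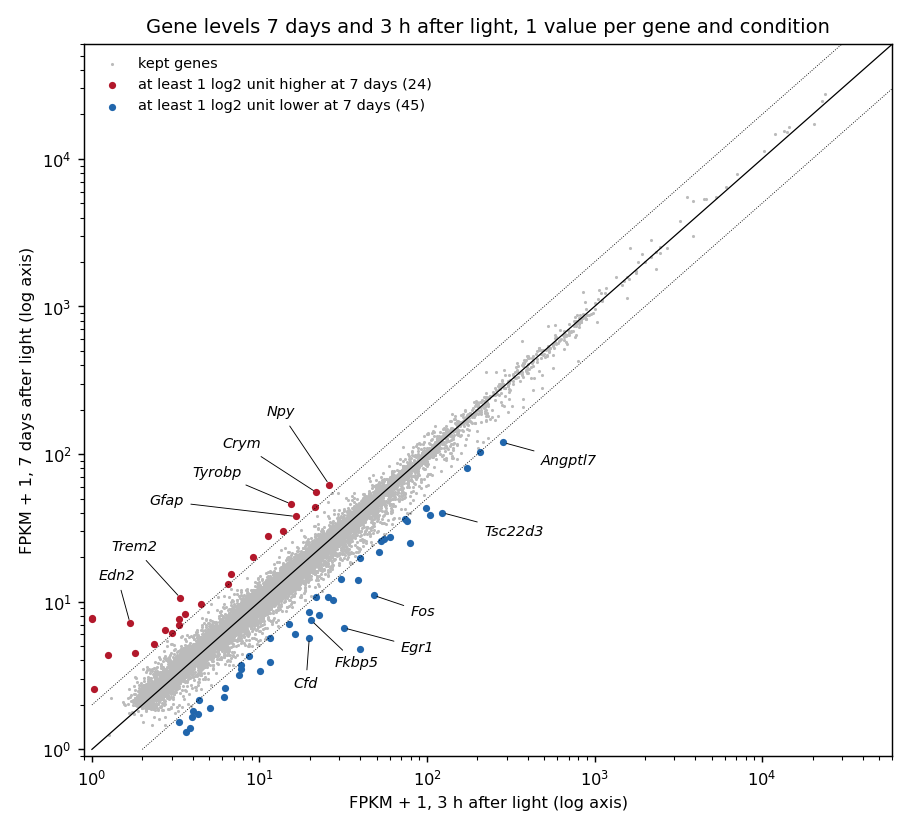
Level of each kept gene at 3 h (horizontal axis) and at 7 days (vertical axis), as FPKM + 1 on log axes, with 1 point per gene. The solid line marks equal levels and the dotted lines a change of 1 log2 unit; 24 genes lie above the upper and 45 below the lower dotted line.

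The other 2 samples took no part in the comparison and show where its values lie among all 4. Of the 45 genes lower at 7 days, 40 had their highest value of all 4 samples at 3 h, and the control lay nearer to the 7-day than to the 3 h value in 36. Over all kept genes these shares were 30.9% and 57.4%. Genes chosen for a higher value at 3 h than at 7 days are bound to have their highest value at 3 h more often, so nothing is read from the first. Among the 36 are the 6 genes kept only through their 3 h value, whose other values averaged under 1 FPKM. The second share is thus not independent of the filter, and nothing is read from it either. Of the 24 higher genes, 16 had their highest value at 7 days and 6 at 24 h, and 13 had their lowest value at 3 h, against 22.3%, 24.7% and 25.6% of all kept genes, with the same limit. The control was nearer to the 7-day value in 8 of these 24 (33.3%, against 57.4% of all kept genes). Eif2s3y and Ddx3y, kept only through their 7-day value, were at 0 in the control and at 3 h and so could not be among the 8.

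Genes known to be induced by glucocorticoids held the lowest median of all the lists described. The receptor for these hormones is a transcription factor that, once bound, raises a set of genes within hours, among them inhibitors of inflammation and enzymes that switch fuel use. Of 24 listed genes 23 were kept, with a median change of -0.76, against -0.0038 over all kept genes. At 7 days 8 of the 23 were lower by at least 1 log2 unit (0.32% of all kept genes), 22 were below 0 (50.8%), and none was higher by 1. The list was drawn up with earlier results of these data known, so its direction is not independent evidence.

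Tsc22d3, which encodes the anti-inflammatory leucine zipper protein GILZ, was at 123 FPKM at 3 h and 39.1 at 7 days, beside 28.99 in the control and 44.5 at 24 h. The 3 h value alone stood apart, and it was 3.14 times the 7-day value, a change of -1.62 (counting error 0.046). Fkbp5, a co-chaperone that lowers the affinity of the glucocorticoid receptor, was at 19.4 FPKM at 3 h and 6.48 at 7 days, beside 6.15 in the control and 7.44 at 24 h. Its early value was 2.99 times the late one, and the late value was close to that of the control. Zbtb16, a zinc finger transcription factor, was at 6.796 FPKM at 3 h and 2.48 at 7 days, beside 1.996 in the control and 2.45 at 24 h, again with the 3 h sample alone at a high level. Cebpd, a transcription factor of the acute phase, was at 26.3 FPKM at 3 h and 9.27 at 7 days, beside 4.58 in the control and 31.04 at 24 h, and differed from the others in being high at 24 h as well.

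The enzymes of the list behaved less uniformly. Fmo1, a flavin-containing monooxygenase, was at 24.8 FPKM at 3 h and 9.76 at 7 days, beside 6.68 in the control and 10.9 at 24 h. Sult1a1, a sulfotransferase for phenols, was at 18.7 FPKM at 3 h and 7.52 at 7 days, beside 5.804 in the control and 7.71 at 24 h. In both, the early value was 2.54 and 2.49 times the late one and the control was lowest. Pdk4, the kinase that blocks entry of pyruvate into the citric acid cycle, was at 10.5 FPKM at 3 h and 2.88 at 7 days, beside 6.45 in the control and 1.99 at 24 h. Its late value lay below the control as well, and the ratio of early to late was 3.66. Angptl4, a secreted inhibitor of lipoprotein lipase, was at 6.71 FPKM at 3 h and 2.71 at 7 days, beside 5.76 in the control and 4.87 at 24 h, so that here the late sample and not the early one stood apart from the control.

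The metallothioneins Mt1 and Mt2, small proteins that bind zinc and copper, did not reach 1 log2 unit. Mt1 was at 794 FPKM at 3 h and 428 at 7 days, beside 325 in the control and 586 at 24 h (change -0.89). Mt2 was at 375 FPKM at 3 h and 207 at 7 days, beside 161 in the control and 304 at 24 h (change -0.85). Both were highest at 3 h and lowest in the control. Ddit4, an inhibitor of mTOR (61.6 FPKM at 3 h and 35.4 at 7 days), Klf9, a Krüppel-like factor (53.2 FPKM at 3 h and 33.02 at 7 days), and Sgk1, a kinase that regulates ion transport (254 FPKM at 3 h and 168 at 7 days), had changes of -0.78, -0.67 and -0.59. At the other end of the list the glutamine synthetase gene Glul (change 0.06) and the cell cycle inhibitor Cdkn1a (8.53 and 8.52 FPKM) did not separate the 2 samples. Glul, the most abundant member by mean FPKM, was at 849 FPKM at 3 h and 884 at 7 days, beside 769 in the control and 395 at 24 h, with 24 h alone at a low level.

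**Figure D2:**
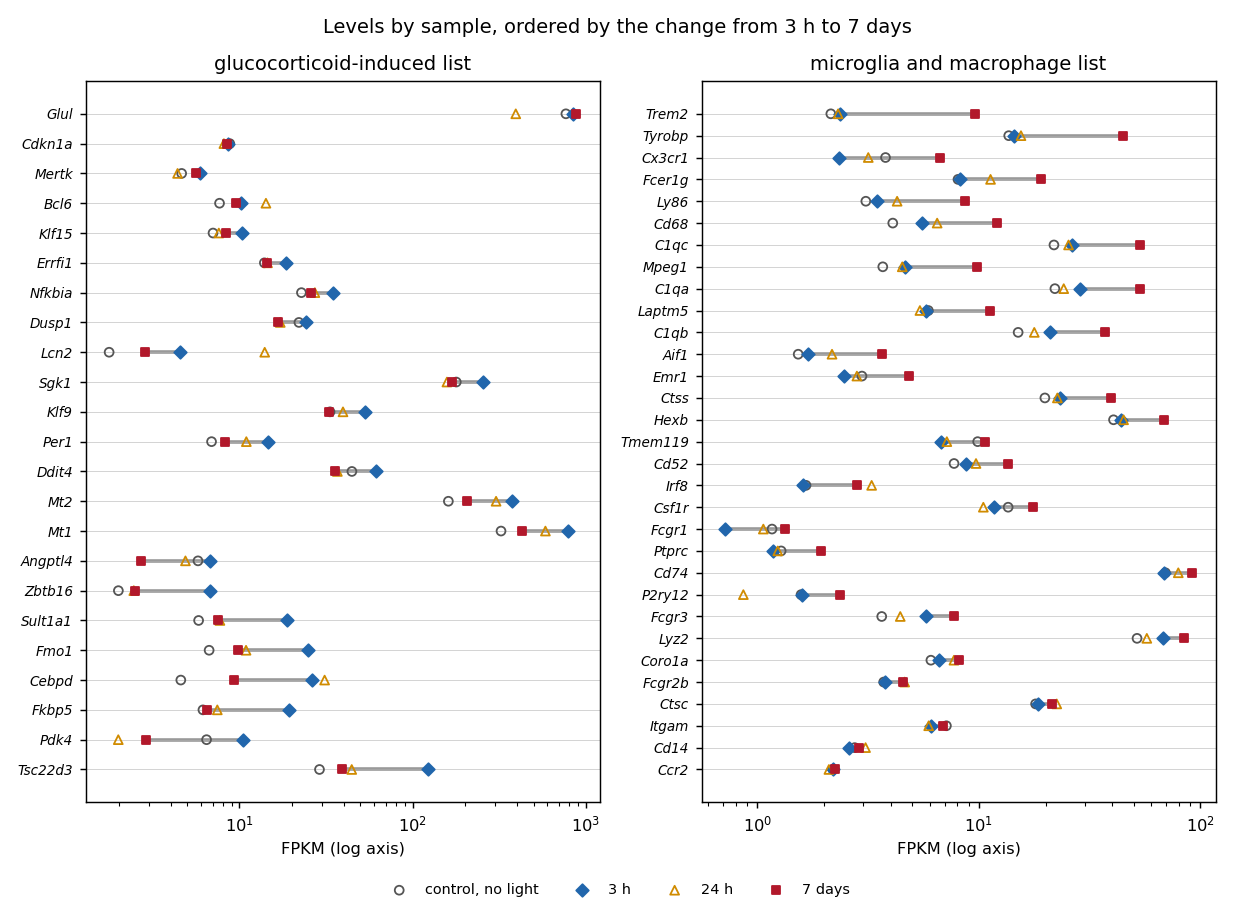
FPKM on a log axis for each kept gene of the glucocorticoid-induced list (left) and of the microglia and macrophage list (right), ordered by change; diamonds are 3 h, squares 7 days, open circles the control and open triangles 24 h, and grey bars join 3 h and 7 days. On the left the 3 h value is above the 7-day value for all genes but Glul, and on the right the 7-day value is above the 3 h value for all 31 genes.

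Immediate early genes, whose transcription starts within minutes of a stimulus and needs no new protein, were also lower in the late sample. Of 30 listed genes 25 were kept, with a median change of -0.51; 22 were below 0 (50.8% of all kept genes), 5 lower by at least 1 log2 unit (0.32%) and none higher by 1. Among the 5, Arc was kept only through its 3 h value and so had to differ. Egr1, a zinc finger transcription factor, was at 30.8 FPKM at 3 h and 5.65 at 7 days, beside 7.904 in the control and 15.9 at 24 h. The 3 h value was 5.46 times that at 7 days, a change of -2.26 (counting error 0.099), and the late value was the lowest of the 4. Fos, a subunit of the transcription factor AP-1, was at 46.97 FPKM at 3 h and 10.05 at 7 days, beside 14.2 in the control and 24.9 at 24 h, and the early value was 4.68 times the late one. Its partner Jun was at 50.99 FPKM at 3 h and 20.8 at 7 days, beside 21.9 in the control and 36.2 at 24 h, with the same order of the samples and with 7 days and control close together.

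Arc, a neuronal gene of synaptic plasticity, was at 2.29 FPKM at 3 h and 0.543 at 7 days, beside 0.717 in the control and 0.776 at 24 h. Atf3, a stress transcription factor, was at 7.702 FPKM at 3 h and 3.31 at 7 days, beside 2.59 in the control and 15.4 at 24 h. Of the 5 immediate early genes lower by 1 log2 unit Atf3 alone had its highest value at 24 h. The orphan nuclear receptor gene Nr4a1 (11.9 and 5.82 FPKM), Fosb (1.51 and 0.608 FPKM), Junb (63.3 and 43.7 FPKM) and Ier2 (24.6 and 15.4 FPKM) had changes of -0.92, -0.64, -0.52 and -0.65, in that order, none past 1 log2 unit. Cyr61 and Ctgf, which encode matricellular proteins controlled by the Hippo pathway, differed from the rest of the list. Ctgf was at 123 FPKM at 3 h and 97.8 at 7 days, beside 56.3 in the control and 62.2 at 24 h, still high at 7 days, and Cyr61 at 32.4 FPKM at 3 h and 35.2 at 7 days, beside 25.6 in the control and 24.6 at 24 h, highest at 7 days. Klf2 (0.17) and Ier5 (0.17) also lay above 0.

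The upstream sequences of 2 of these genes are shown because the factors that drive immediate early genes are known to act there. Both were taken from RefSeq on GRCm38.p6 by gene symbol (the FPKM values rest on mm9), cover 250 bases before the transcription start and read 5′ to 3′ in the direction of the gene. Capitals mark TGACG or its reverse complement, the core of the site bound by CREB and ATF proteins. Fos is at chr12:85473640-85473889, plus strand, and Atf3 at chr1:191183334-191183583, minus strand.
Fos: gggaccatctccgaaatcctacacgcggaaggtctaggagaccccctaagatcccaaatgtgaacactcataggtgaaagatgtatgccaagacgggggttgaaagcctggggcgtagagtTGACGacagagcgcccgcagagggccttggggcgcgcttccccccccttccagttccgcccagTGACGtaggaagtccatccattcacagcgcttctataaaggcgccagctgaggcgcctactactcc
Atf3: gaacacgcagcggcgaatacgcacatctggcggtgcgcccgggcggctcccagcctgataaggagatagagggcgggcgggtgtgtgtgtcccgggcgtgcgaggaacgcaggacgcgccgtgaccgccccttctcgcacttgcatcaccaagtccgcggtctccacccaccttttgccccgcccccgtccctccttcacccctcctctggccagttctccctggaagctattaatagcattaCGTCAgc
The matches start 129 and 66 bases before the start of Fos and 7 bases before that of Atf3, and no match of the other motifs searched overlaps them. Among the kept immediate early genes with an entry, 12 of 19 held TGACG on either strand of such a window, against 19.8% of all 27025 genes in the table. The glucocorticoid-induced genes held it in 9 of 19, and AGAACA, an arm of the site of the glucocorticoid receptor, in 4 of 19 (18.2% of all). AGAACA was in 9 of 22 microglia and macrophage genes, in 5 of 26 rod genes and in 0 of 19 immediate early genes. In the microglia and macrophage genes TGACG was in 4 of 22, and in the rod genes in 2 of 26. Also searched were CACGTG (6.86% of all) and the AP-1 site TGANTCA (7.82% of all). They were in 6 and 2 of 19 glucocorticoid-induced genes and in 4 and 0 of 19 immediate early genes. In microglia and macrophage genes they were in 1 and 2 of 22, and in rod genes in 0 and 3 of 26. These motifs were picked after the changes were known, a match is only a run of letters, and base composition differs between promoters. The shares of all genes, here and below, also take in genes that were not kept, so they are not a like background for the lists.

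Several genes of fat tissue and of lipid handling were among the lower genes. Adipocytes can be left on a dissected eye, and some of their genes also respond to glucocorticoids. Of 24 listed adipocyte genes 18 were kept, with a median of -0.30, 4 lower by at least 1 log2 unit (0.32% of all kept genes) and 16 below 0 (50.8%). Among the 4, Cidec was kept only through its 3 h value. Cfd, the serine protease adipsin, was at 18.8 FPKM at 3 h and 4.72 at 7 days, beside 6.44 in the control and 9.77 at 24 h (change -1.79). Fabp4, a fatty acid carrier, was at 37.5 FPKM at 3 h and 12.99 at 7 days, beside 12.2 in the control and 20.3 at 24 h (change -1.46). Adipoq, the gene of the hormone adiponectin, was at 3.02 FPKM at 3 h and 0.805 at 7 days, beside 1.18 in the control and 1.63 at 24 h. The lipid droplet gene Cidec was at 3.31 FPKM at 3 h and 0.7396 at 7 days, beside 0.5198 in the control and 1.41 at 24 h. All 4 were highest at 3 h. Summed over the list the level was 316 FPKM at 3 h and 253 at 7 days, beside 235 in the control and 278 at 24 h, and the defining markers Adipoq, Plin1 and Lep (0.157 and 0.05405 FPKM) were above 0 in both samples. The values of Lep lie near the floor, since 1 fragment was worth about 0.0467 FPKM at 3 h and 0.0255 at 7 days. Car3, the carbonic anhydrase of fat and muscle (65.01 and 86.3 FPKM), and Cebpa (6.69 and 7.38 FPKM) were not lower at 7 days. In tissue RNA, fewer cells of a type cannot be told apart from less RNA per cell. How far the content of fat in the 2 samples bears on the glucocorticoid-induced genes was not tested.

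Other genes with large early values belong to none of these groups. Ip6k2, an inositol hexakisphosphate kinase, was at 78.7 FPKM at 3 h and 24.2 at 7 days, beside 25.6 in the control and 28.6 at 24 h, so the early sample stood 3.25 times above the late one and apart from all the others. Angptl7, a secreted protein of cornea and trabecular meshwork, was at 284 FPKM at 3 h and 119 at 7 days, beside 60.9 in the control and 149 at 24 h. It is the most abundant of the genes lower by 1 log2 unit, and its late value was still well above the control. Ifi27l2a, an interferon-inducible gene, was at 103 FPKM at 3 h and 37.4 at 7 days, beside 69.1 in the control and 57.6 at 24 h, with the late sample lowest. Lpcat1, an acyltransferase of phosphatidylcholine that photoreceptors need, was at 98.2 FPKM at 3 h and 41.9 at 7 days, beside 52.6 in the control and 57.5 at 24 h. Kpna2, an importin, was at 172 FPKM at 3 h and 79.5 at 7 days, beside 109.5 in the control and 80.8 at 24 h. The noncoding host gene Snhg12 was at 59.1 FPKM at 3 h and 26.5 at 7 days, beside 19.7 in the control and 45.3 at 24 h. For these last 3 genes the early sample was again highest, by 2.35, 2.16 and 2.23 times the late value.

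**Figure D3:**
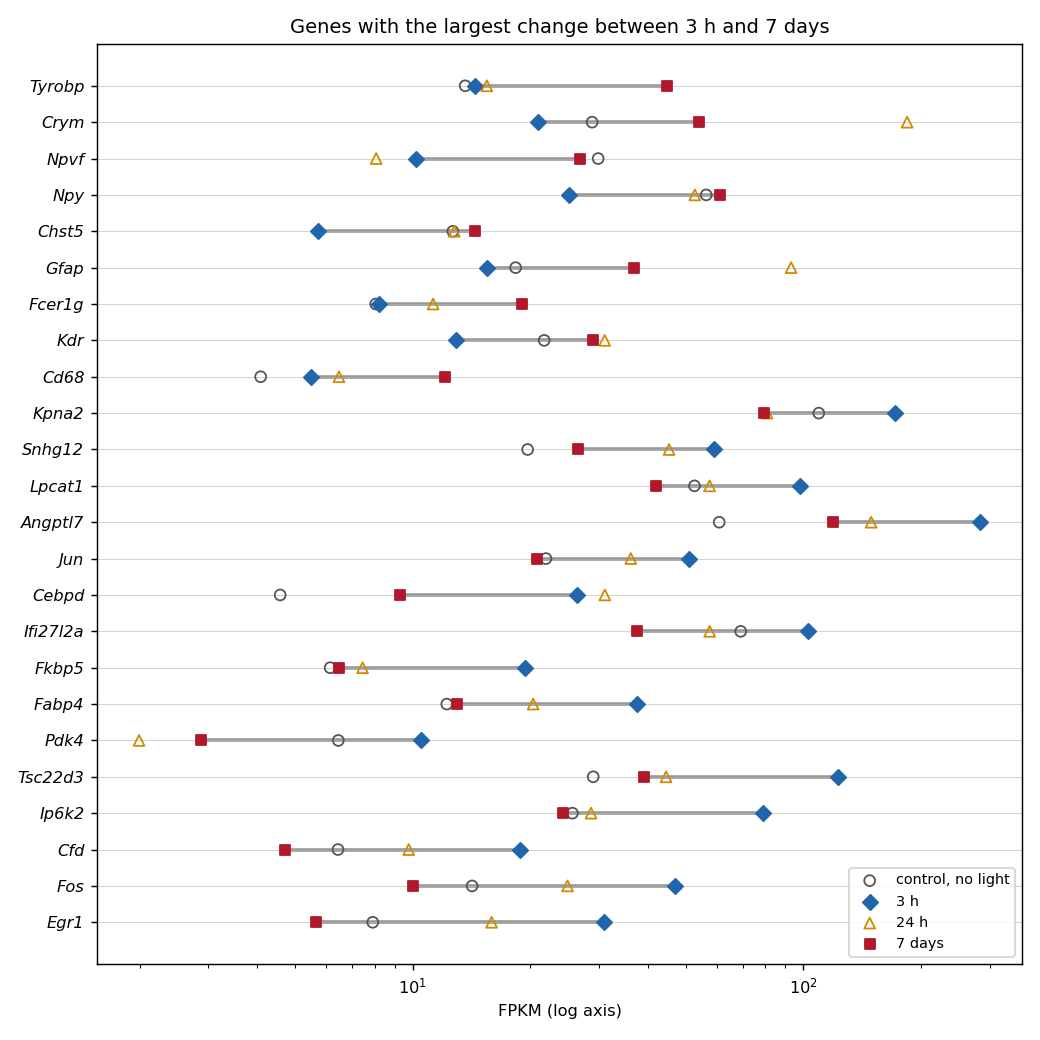
FPKM on a log axis in all 4 samples for 24 genes with large changes among those averaging 5 FPKM or more; pseudogenes, unnamed models, histone copies, Amd1 and genes beyond 4 of a list or symbol family (such as Fmo1 and Sult1a1) are not drawn; diamonds are 3 h, squares 7 days, open circles the control and open triangles 24 h, and grey bars join 3 h and 7 days. In the 9 genes at the top the square lies to the right of the diamond, and in the 15 below it to the left.

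Genes of microglia and macrophages were higher at 7 days throughout. These cells share a myeloid programme of surface receptors, complement C1q and lysosomal proteases. Of 33 listed genes 31 were kept, with a median change of 0.60; all 31 were above 0, against 49.2% of all kept genes, and 6 were higher by at least 1 log2 unit (0.171% of all kept genes). The whole list summed to 408 FPKM at 3 h and 663 at 7 days, beside 370.1 in the control and 414 at 24 h. Y-linked transcripts differ between the 2 samples, and the part of sex in the difference of this list was not tested. The Y-linked genes summed to 0.00591 FPKM at 3 h and 18.7 at 7 days, beside 0 in the control and 0.0189 at 24 h.

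The largest changes were in the receptor pair Trem2 and Tyrobp. Trem2, a receptor for lipids and apoptotic debris, was at 2.37 FPKM at 3 h and 9.62 at 7 days, beside 2.14 in the control and 2.31 at 24 h (change 1.66, counting error 0.16). Tyrobp, the adaptor through which Trem2 and other myeloid receptors signal, was at 14.5 FPKM at 3 h and 44.9 at 7 days, beside 13.6 in the control and 15.5 at 24 h (change 1.57, counting error 0.084). In both genes the other 3 samples lay close together and the 7-day sample alone was high, 4.06 and 3.102 times the 3 h value. It is also the only sample with Y-linked transcripts. Fcer1g, the signalling chain of Fc receptors, was at 8.21 FPKM at 3 h and 19.03 at 7 days, beside 8.04 in the control and 11.3 at 24 h. Ly86, a partner of a Toll-like receptor homologue, was at 3.48 FPKM at 3 h and 8.63 at 7 days, beside 3.09 in the control and 4.27 at 24 h. Cd68, a lysosomal membrane protein of phagocytes, was at 5.51 FPKM at 3 h and 12.1 at 7 days, beside 4.08 in the control and 6.48 at 24 h. For these 3 the late value was 2.32, 2.48 and 2.197 times the early one, and 24 h lay between.

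Cx3cr1, the fractalkine receptor of microglia, was at 2.33 FPKM at 3 h and 6.66 at 7 days, beside 3.79 in the control and 3.16 at 24 h, so part of its change of 1.20 came from an early value below the control. The complement genes C1qa (28.5 and 53.5 FPKM), C1qb (21.03 and 37.2 FPKM) and C1qc (26.2 and 53.2 FPKM), whose products opsonize debris and synapses, had changes of 0.88, 0.80 and 0.99. Mpeg1, a pore-forming protein of phagocytes, was at 4.66 FPKM at 3 h and 9.78 at 7 days, Ctss, a protease that processes MHC class II, at 23.3 FPKM at 3 h and 39.6 at 7 days, and Aif1, which encodes Iba1, at 1.699 FPKM at 3 h and 3.63 at 7 days. Among markers of resting microglia, Tmem119 and P2ry12 had smaller changes than Cx3cr1, and that of Tmem119 was at the list median of 0.60. Tmem119 was at 6.72 FPKM at 3 h and 10.7 at 7 days, beside 9.87 in the control and 7.16 at 24 h (change 0.60), close to the control in the late sample, and P2ry12 at 1.59 FPKM at 3 h and 2.36 at 7 days, beside 1.57 in the control and 0.864 at 24 h (change 0.37). The monocyte chemokine receptor gene Ccr2 (2.19 and 2.24 FPKM) and Cd14 (2.59 and 2.87 FPKM), an endotoxin co-receptor, did not separate the samples.

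The upstream sequences of Trem2 and Cd68 are shown because PU.1, the factor that sets the myeloid lineage, is known to act close to the start of myeloid genes. They come from the same RefSeq table and cover the 250 bases before the start on GRCm38.p6, and capitals mark the PU.1 core GAGGAA or its reverse complement. Trem2 is at chr17:48346151-48346400, plus strand, and Cd68 at chr11:69666171-69666420, minus strand.
Trem2: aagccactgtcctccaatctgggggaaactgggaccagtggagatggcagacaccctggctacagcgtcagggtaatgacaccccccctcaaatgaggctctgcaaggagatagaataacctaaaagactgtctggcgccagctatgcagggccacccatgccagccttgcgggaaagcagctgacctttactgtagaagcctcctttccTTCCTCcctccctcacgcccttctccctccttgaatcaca
Cd68: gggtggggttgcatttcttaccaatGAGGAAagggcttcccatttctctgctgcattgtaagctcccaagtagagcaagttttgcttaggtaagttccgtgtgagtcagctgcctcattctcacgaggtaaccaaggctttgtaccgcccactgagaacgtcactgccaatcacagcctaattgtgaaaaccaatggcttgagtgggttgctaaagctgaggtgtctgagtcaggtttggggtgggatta
The match begins 40 bases before the start in Trem2 and 225 in Cd68, without overlap with the other motifs searched. The core was present on either strand in 12 of 22 kept microglia and macrophage genes with an entry, in 11 of 26 rod genes, in 4 of 19 immediate early genes and in 25.9% of all genes.

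Related lists shared the direction to different degrees. Over all kept genes 49.2% were above 0 and 0.171% higher by 1 log2 unit. The list of disease-associated microglia, a state that depends on Trem2, had a median of 0.30 over 23 kept genes of 25, with 18 above 0. Clec7a, a receptor for fungal glucans (1.34 and 4.15 FPKM), Trem2 and Tyrobp were higher by 1. Trem2 and Tyrobp were already counted in the microglia and macrophage list. Cst7, a cystatin of this state, did not pass the filter and was at 0.196 FPKM at 3 h and 1.81 at 7 days, beside 0.191 in the control and 0.234 at 24 h, with the 7-day sample alone above 1 FPKM. The chemokine gene Ccl6 (5.95 and 2.72 FPKM) went the other way with a change of -0.90, and Axl (0.02) and Lpl (-0.06) did not separate the samples. All 6 kept MHC class II genes of 11 listed were above 0 (median 0.46), among them H2-Aa (34.8 and 50.7 FPKM) and Cd74 (68.3 and 91.8 FPKM). In the lysosome list 24 of 29 genes were above 0 (median 0.11), led by Cd68, Ctss and the glucuronidase gene Gusb (6.34 and 11.04 FPKM), while the membrane proteins Lamp1 (0.07) and Lamp2 (0.02) and the cholesterol exporter Npc1 (-0.26) were near or below 0. Cd68 and Ctss were already described with the microglia and macrophage genes. With genes of more than 1 list left out, the lysosome median was 0.058. Ctsd, the aspartic protease cathepsin D, was the lysosomal gene with the highest mean FPKM, and was at 369 FPKM at 3 h and 584 at 7 days, beside 355 in the control and 461 at 24 h.

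Complement genes were mostly higher at 7 days, with a median of 0.14 over 18 kept genes. Of these 15 were above 0 (49.2% of all kept genes) and 3 below. Apart from C1q, the receptor gene C3ar1 (1.74 and 3.16 FPKM) and the regulatory protease gene Cfi (0.304 and 1.22 FPKM) were higher, whereas C3 (5.76 and 4.43 FPKM) and, as above, Cfd were lower. Markers of other blood cells were scarce. None of the 13 lymphocyte genes found reached a mean of 1 FPKM, and their summed level was 2.41 FPKM at 3 h and 3.299 at 7 days. Of the neutrophil genes 5 were kept. The calprotectin gene S100a8 was at 0.802 FPKM at 3 h and 3.49 at 7 days, beside 1.14 in the control and 2.13 at 24 h. Its partner S100a9 was at 2.41 FPKM at 3 h and 4.803 at 7 days, beside 1.22 in the control and 3.54 at 24 h, whereas Camp, Ltf and Mmp9 had changes of 0.07, -0.28 and 0.16. The granule genes Mpo and Elane were listed at 0 at 3 h and at 0.00784 and 0.0255 FPKM at 7 days.

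Reactive glia were not simply higher or lower. The gliosis and acute phase list had a median of 0.11 over 29 genes, with 2 higher and 2 lower by at least 1 log2 unit (Edn2 and Gfap against Lif and Cebpd, with 0.171% and 0.32% over all kept genes). Lif was kept only through its 3 h value. Edn2, an endothelin made by stressed photoreceptors, was at 0.688 FPKM at 3 h and 6.17 at 7 days, beside 0.761 in the control and 10.01 at 24 h, so it was near the control level at 3 h and far above it at both later times (change 2.09, counting error 0.17). Gfap, the intermediate filament of reactive Müller glia and astrocytes, was at 15.5 FPKM at 3 h and 36.8 at 7 days, beside 18.3 in the control and 93.03 at 24 h. Its late value was 2.37 times the early one but well under that at 24 h. Lif, the cytokine that signals photoreceptor stress to Müller glia, was at 2.84 FPKM at 3 h and 0.393 at 7 days, beside 0.409 in the control and 1.05 at 24 h, highest at 3 h and lowest at 7 days. Socs3 (7.503 FPKM at 3 h and 5.12 at 7 days, beside 4.13 in the control and 22.8 at 24 h) and Lcn2 (4.55 FPKM at 3 h and 2.86 at 7 days, beside 1.76 in the control and 13.99 at 24 h) were high at 24 h and moderately higher at 3 h than at 7 days. Stat3, Osmr and Hmox1 did not separate the 2 samples, with changes of 0.04, -0.07 and 0.01.

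Genes of resting Müller glia had a median of 0.20 over 22 genes, and 17 were above 0. Crym, a thyroid hormone binding protein, was at 20.9 FPKM at 3 h and 53.96 at 7 days, beside 28.8 in the control and 184 at 24 h, past 1 log2 unit, although the 24 h value was far above both. Gpr37, a prosaposin receptor, was at 24.6 FPKM at 3 h and 46.4 at 7 days, beside 37.5 in the control and 32.6 at 24 h. Aqp4, the water channel of the end feet, was at 16.7 FPKM at 3 h and 29.4 at 7 days, beside 23.7 in the control and 21.8 at 24 h. In these 2 genes the early sample was lowest and the late one highest. Apoe, the lipid carrier of glia and of activated microglia, was at 855 FPKM at 3 h and 1247 at 7 days, beside 873 in the control and 778 at 24 h. Clu, an extracellular chaperone, was at 528 FPKM at 3 h and 736 at 7 days, beside 524 in the control and 751 at 24 h. The retinaldehyde binding protein gene Rlbp1 (0.16) and Vim (0.11) lay close to 0.

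Rod genes were lower at 7 days than at 3 h with few exceptions. Of 38 listed genes 36 were kept, with a median of -0.39; 34 were below 0 (50.8% of all kept genes) and none was past 1 log2 unit. Gnat1, the rod transducin alpha subunit, was at 2312 FPKM at 3 h and 1787 at 7 days, beside 2679 in the control and 1581 at 24 h (change -0.37). Its 3 h value lay between the control and the 2 later samples. The genes with the largest differences were Rp1l1, a protein of the axoneme (78.1 FPKM at 3 h and 38.99 at 7 days, beside 59.9 in the control and 44.9 at 24 h), Grk1, a kinase of the rod light response (214 FPKM at 3 h and 121 at 7 days, beside 177 in the control and 142 at 24 h), and Pde6b, a catalytic subunit of the rod phosphodiesterase (482 FPKM at 3 h and 279 at 7 days, beside 419 in the control and 263 at 24 h). Their changes were -0.98, -0.82 and -0.79, and their early values were the highest of the 4 samples.

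Members of 1 enzyme or pathway did not move by the same amount. Within the phosphodiesterase, Pde6b had a change of -0.79, Pde6a of -0.27 (228 and 188 FPKM) and the inhibitory subunit Pde6g of -0.16 (809 and 725 FPKM). The guanylate cyclases Gucy2e and Gucy2f and their activators Guca1a and Guca1b, which restore cGMP after a flash, had changes between -0.59 and -0.65: -0.63 for Gucy2e, -0.62 for Gucy2f, -0.65 for Guca1a and -0.59 for Guca1b. Gnb1 (-0.09), a transducin beta subunit found in many cells, and its rod partner Pdc, phosducin (-0.07), stayed close to 0. The transcription factors were divided too, with Nrl at 567 FPKM at 3 h and 380.2 at 7 days (-0.57), Crx at 236 FPKM at 3 h and 172 at 7 days (-0.46) and Nr2e3 at 107 FPKM at 3 h and 105 at 7 days (-0.02). Reep6 (0.08) and Rcvrn, recoverin (0.11), were the 2 genes above 0. Impg2, a matrix proteoglycan of the photoreceptor layer, was at 45.01 FPKM at 3 h and 35.7 at 7 days, beside 46.5 in the control and 115 at 24 h. Aipl1, a chaperone of phosphodiesterase, was at 231 FPKM at 3 h and 179.6 at 7 days, beside 245 in the control and 288 at 24 h; in both 24 h was highest and 7 days lowest.

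The upstream sequence of Gucy2e, the retinal guanylate cyclase, is shown as an example of a rod promoter with a core site of CRX, the homeobox factor of photoreceptors. It lies at chr11:69237023-69237272, minus strand, covers the 250 bases before the start from the same RefSeq table on GRCm38.p6, and capitals mark TAATCC or its reverse complement.
Gucy2e: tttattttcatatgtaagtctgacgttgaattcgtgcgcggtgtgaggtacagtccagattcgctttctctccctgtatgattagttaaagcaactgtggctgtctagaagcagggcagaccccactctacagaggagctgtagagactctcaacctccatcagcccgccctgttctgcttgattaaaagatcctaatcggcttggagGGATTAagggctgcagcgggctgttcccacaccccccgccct
The match begins 42 bases before the start and overlaps none of the other motifs searched. TAATCC was found on either strand in 10 of 26 kept rod genes with an entry, in 4 of 22 microglia and macrophage genes, in 0 of 19 immediate early genes and in 7.21% of all genes.

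The other neurons of the retina did not share the lower level. Median changes were 0.044 for 15 cone genes, 0.13 for 20 bipolar cell genes and 0.084 for 25 genes of amacrine, horizontal and ganglion cells, with 10, 17 and 20 of them above 0. Among cone genes the transducin subunit Gnb3 was at 70.5 FPKM at 3 h and 110.3 at 7 days, beside 79.5 in the control and 193 at 24 h. The phosphodiesterase subunit Pde6h was at 99.4 FPKM at 3 h and 136 at 7 days, beside 113 in the control and 103 at 24 h, higher at 7 days. The cone opsins Opn1sw (117 and 115 FPKM) and Opn1mw (48.4 and 37.2 FPKM) had changes of -0.03 and -0.37, and cone arrestin, Arr3, was at 82.1 FPKM at 3 h and 77.3 at 7 days, beside 41.5 in the control and 36.2 at 24 h, with the 2 compared samples alike and the others lower. Grm6, the glutamate receptor of ON bipolar cells, was at 7.47 FPKM at 3 h and 10.8 at 7 days, beside 10.7 in the control and 6.77 at 24 h. Lrit3, which organizes that synapse, was at 10.1 FPKM at 3 h and 5.59 at 7 days, beside 6.39 in the control and 6.84 at 24 h, the only bipolar gene with a change under -0.5. The visual cycle genes Lrat (34.4 FPKM at 3 h and 20.5 at 7 days, beside 18.2 in the control and 23.5 at 24 h) and Rdh11 (37.99 FPKM at 3 h and 20.8 at 7 days, beside 25.5 in the control and 25.3 at 24 h), which esterify retinol and reduce retinaldehyde, were highest at 3 h, while Rpe65 (130.1 and 147 FPKM) and Rgr (303 and 288 FPKM) differed little. The median over the 22 pigment epithelium and visual cycle genes was 0.06.

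**Figure D4:**
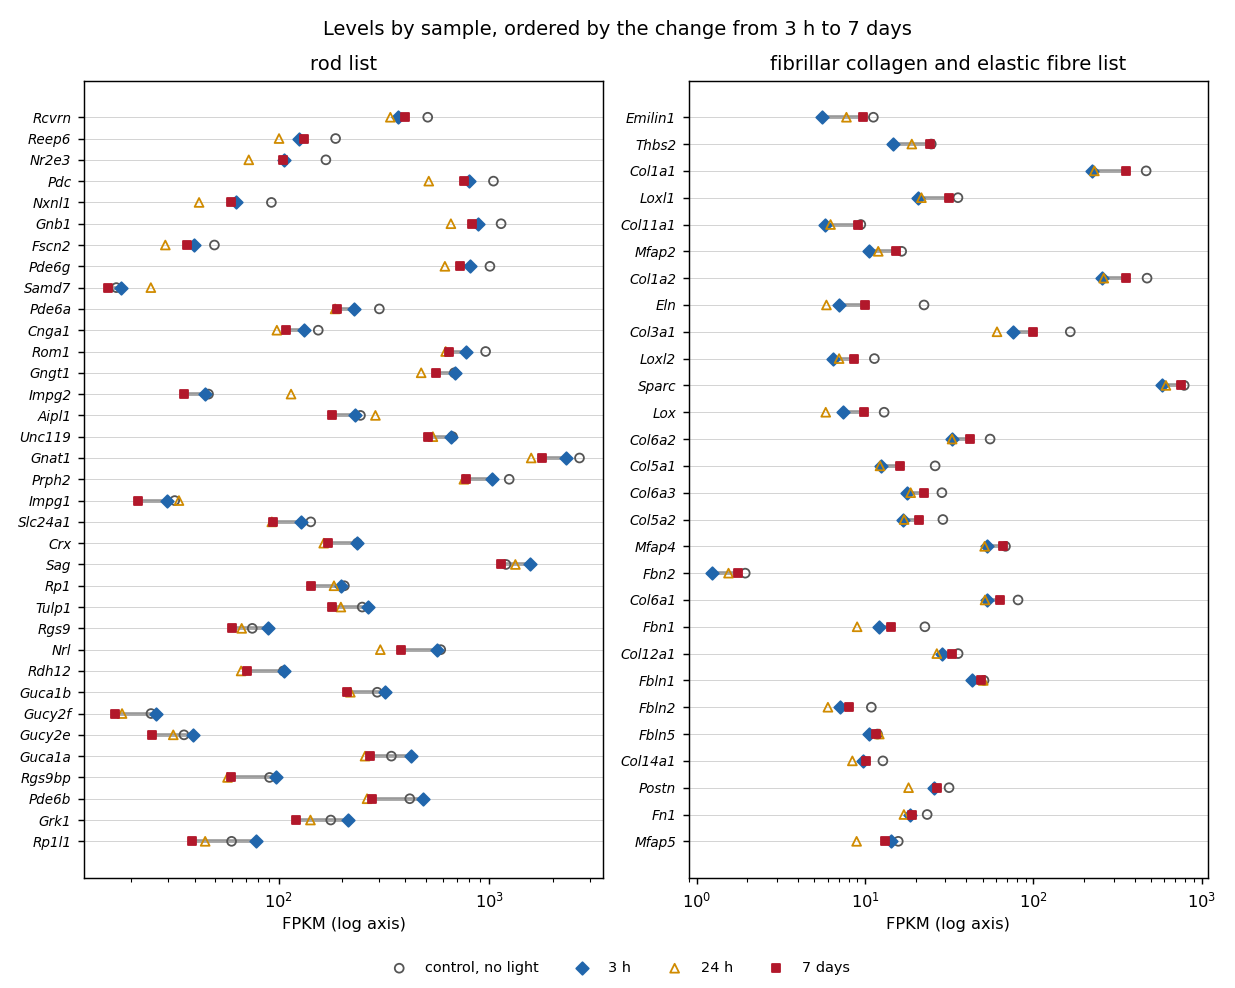
FPKM on a log axis for the kept genes of the rod list, 1 of which is not drawn (left), and of the fibrillar collagen and elastic fibre list (right), ordered by change; diamonds are 3 h, squares 7 days, open circles the control and open triangles 24 h, and grey bars join 3 h and 7 days. Rod genes lie mostly to the left at 7 days (34 of the 36 kept), matrix genes mostly to the right (27 of 28), and the control is highest for 27 of the 28 matrix genes.

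Genes of the fibrous matrix were higher at 7 days than at 3 h. This matrix of cornea, sclera and vessel walls is made of fibrillar collagens and of elastic fibres, which resident fibroblasts secrete. All 28 listed genes were kept, 27 were above 0 (49.2% of all kept genes), the median was 0.33 and none was past 1 log2 unit. Col1a1, the main chain of type I collagen, was at 224 FPKM at 3 h and 358 at 7 days, beside 468 in the control and 231 at 24 h (change 0.67). Col1a2 was at 256 FPKM at 3 h and 357 at 7 days, beside 474 in the control and 262 at 24 h (change 0.48). Eln, the elastin gene, was at 6.96 FPKM at 3 h and 9.94 at 7 days, beside 22.4 in the control and 5.89 at 24 h. For these genes the late value lay between the early value and the control, so the late sample was higher than the early one yet not at the unexposed level. Emilin1, a glycoprotein of elastic fibres (5.55 FPKM at 3 h and 9.69 at 7 days, beside 11.2 in the control and 7.75 at 24 h), and Thbs2, a matricellular thrombospondin (14.7 FPKM at 3 h and 24.4 at 7 days, beside 24.7 in the control and 18.95 at 24 h), had the largest changes. Mfap5, a microfibril protein (14.2 and 13.1 FPKM), was the 1 gene below 0, and Fn1 (0.05) and Postn (0.06) lay near 0.

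The proteoglycans that space collagen fibrils (median 0.20, 11 of 13 above 0), the basement membrane genes (median 0.23, all 19 above 0) and the vascular list (median 0.21, 22 of 25 above 0) shared this direction at smaller size. Decorin, Dcn, was at 759.7 FPKM at 3 h and 846 at 7 days, the collagen IV chain Col4a1 at 47.5 FPKM at 3 h and 59.6 at 7 days and Col18a1, the source of endostatin, at 15.7 FPKM at 3 h and 22.6 at 7 days. Kdr, the receptor for vascular endothelial growth factor, was the only vascular gene past 1 log2 unit, at 12.9 FPKM at 3 h and 28.99 at 7 days, beside 21.7 in the control and 31.01 at 24 h. Its early value was below the other 3. Other endothelial genes differed much less, with Pecam1 at -0.05, Flt1 at 0.15, Cdh5 at 0.35 and Cldn5, the tight junction claudin, at 0.55. Kdr is also known to be expressed by neural progenitors and some retinal neurons.

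The neuropeptide genes Npvf and Npy were higher at 7 days, with low early values. Npvf, the precursor of RFamide peptides, was at 10.2 FPKM at 3 h and 26.9 at 7 days, beside 29.8 in the control and 8.06 at 24 h. Npy was at 25.1 FPKM at 3 h and 61.1 at 7 days, beside 56.4 in the control and 52.7 at 24 h. For Npvf both 3 h and 24 h lay below the control, and for Npy the 3 h value stood clearly below the other 3. Chst5, a sulfotransferase for corneal keratan sulfate, was at 5.73 FPKM at 3 h and 14.5 at 7 days, beside 12.7 in the control and 12.8 at 24 h, with the early sample alone at a low level, and Slc4a11, a membrane transporter of the corneal endothelium, was at 4.12 FPKM at 3 h and 8.66 at 7 days, beside 15.6 in the control and 5.79 at 24 h, lower than the control in all light samples. Amd1 was at 0.0225 FPKM at 3 h and 1.58 at 7 days, beside 9.12 in the control and 13.4 at 24 h. Its near-identical copy Amd2 was at 69.5 FPKM at 3 h and 59.3 at 7 days, beside 56.9 in the control and 51.3 at 24 h; fragments may be split differently between such copies, so the value of Amd1 is uncertain.

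Circadian clock genes did not move as a block, with a median of -0.096 over 19 genes and none past 1 log2 unit. The clock is a feedback loop in which Arntl and Clock activate the Per and Cry repressors and the output gene Dbp. Per1 (14.6 and 8.25 FPKM), Per2 (7.49 and 4.84 FPKM), Cry1 (20.97 and 14.8 FPKM), Arntl (26.01 and 16.3 FPKM) and Nfil3 (8.51 and 5.43 FPKM) had changes of -0.76, -0.54, -0.48, -0.65 and -0.56. On the other side, Nr1d1, the repressor of Arntl (32.6 and 48.1 FPKM), and Dbp (58.2 and 82.4 FPKM) had changes of 0.55 and 0.49. Arntl and its repressor thus differed in opposite directions. The sources used here do not say whether both samples were collected at the same time of day, and its part in these values was not tested.

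Stress pathways had medians close to 0. Median changes were -0.07 for heat shock genes, 0.036 for Nrf2 targets, -0.043 for the unfolded protein and integrated stress response and -0.04 for cell death genes, and no gene of the 4 lists was past 1 log2 unit. Below 0 were 14 of 17 heat shock genes, 7 of 19 Nrf2 targets, 15 of 21 genes of the unfolded protein and integrated stress response and 13 of 21 cell death genes. The lowest changes of the unfolded protein and integrated stress response list were in Atf4, Asns and Sesn2 (-0.87, -0.73 and -0.58). Atf4, a transcription factor of this response, was at 199 FPKM at 3 h and 109 at 7 days, beside 127 in the control and 145 at 24 h. The asparagine synthetase gene Asns was at 37.5 FPKM at 3 h and 22.2 at 7 days, beside 21.2 in the control and 25.4 at 24 h. Sesn2, an inhibitor of mTOR, was at 9.38 FPKM at 3 h and 5.93 at 7 days, beside 5.52 in the control and 6.67 at 24 h. All of them were highest at 3 h. The chaperones of the endoplasmic reticulum Hspa5 (-0.04), Hsp90b1 (-0.07) and Calr (0.04) were close to 0. Respiratory chain genes had a median of -0.031, glycolysis genes of 0.069, cholesterol synthesis genes of -0.021 and cell cycle genes of 0.061. For cytosolic ribosomal proteins the median was -0.066, and 40 of 42 genes were below 0.

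**Figure D5:**
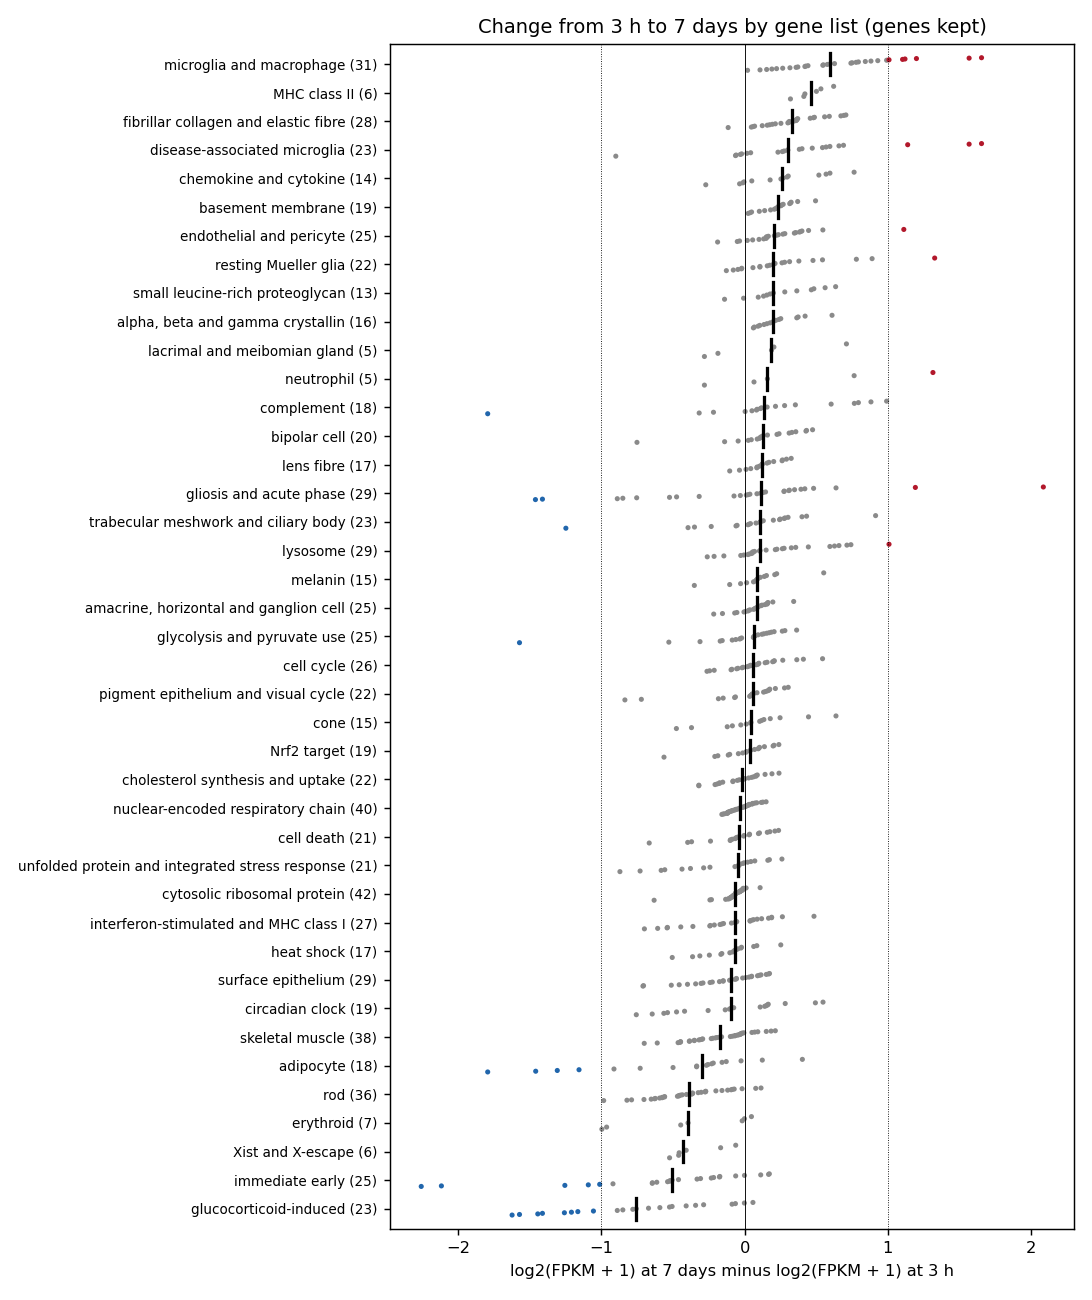
Change in log2(FPKM + 1) from 3 h to 7 days for the kept genes of each list with at least 3 kept genes, ordered by median; each point is a gene, the black bar is the median, coloured points are past 1 log2 unit and the number kept is in brackets. Glucocorticoid-induced (-0.76) and immediate early genes (-0.51) are at the bottom and microglia and macrophage genes (0.60) at the top.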

How the data were processed

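RNA of eyes was sequenced in 4 conditions, with 1 value per gene and condition. Depth per sample was only estimated, as the median FPKM of olfactory receptor genes that were above 0 in a single sample (14 genes at 3 h, 20 at 7 days). The deposited FPKM were made by the authors with bcl2fastq 1.8.3, TopHat2 version 2 and Cuffdiff 2.2.1 on mm9, per the submitters' processing notes, and the series' design text adds Cufflinks. Annotation, library scaling and handling of multiply mapped fragments are not given in the sources at hand. Genes averaging 1 FPKM or more were kept, changes were computed with a pseudocount of 1 in Python 3.11.15, NumPy 2.4.6 and pandas 2.3.3, and 1 log2 unit was the threshold. The script was tested on simulated data. The table holds no replicates, so there was no test. Gene classes came from RefSeq on GRCm38.p6 (22327 symbols, 99.0%, matched), which is not the build of the values, so gene coordinates were not used except with printed promoters.

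Named were the 15 genes with the largest change in each direction (10 qualified among the higher ones) past the threshold among genes averaging 5 FPKM or more, without small RNA genes, pseudogenes, unnamed models, histone copies and more than 4 genes of 1 list or symbol family, plus Abca4, Rdh8, sex-linked genes and members of the 43 lists (1001 entries, 977 found, 844 different genes kept). Genes of a list that were neither past the threshold nor most abundant were chosen after their values were seen. The compared samples, the lists and the motifs were chosen with earlier results of these data known. The values of 1 rod gene are not reported here. The alternatives were other pseudocounts, filters, scalings and gene classes.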

Additional observations from a re-analysis of the deposited data

Results flagged for a closer look

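Small RNA genes were set aside from the comparison, yet they took a large and variable part of the deposited values. Their share of the summed FPKM was 12.9% at 3 h and 10.5% at 7 days, beside 9.09% in the control and 8.54% at 24 h, so both compared samples lay above the control. Of the 120 such genes that averaged 1 FPKM or more, 23 were higher and 25 lower by at least 1 log2 unit at 7 days, and 35 of these were listed at 0 in 1 of the samples. The difference was not tested, and FPKM of genes this short are very sensitive to single fragments.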

How the results depend on the processing

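No paired analysis was possible because each condition has 1 value, and for the same reason no sample could be left out. With a pseudocount of 0.1 the counts were 44 higher and 74 lower in place of 24 and 45, and the microglia and macrophage median was 0.77. Among genes averaging 5 FPKM or more there were 12 higher genes, and with small RNA genes kept 47 higher and 70 lower. Leaving out genes of more than 1 list gave a microglia and macrophage median of 0.49. Without a filter the median of the lacrimal and meibomian gland list turned from 0.19 to -0.0053. That of the erythroid list, which was -0.395, moved to -0.021 without a filter and to -0.23 among genes averaging 5 FPKM or more. The neutrophil median moved from 0.16 to 0.46 with genes of more than 1 list left out. The 3 rescalings shifted all changes by at most 0.027 log2 units and left 68, 68 and 64 of the 69 genes past the threshold. Under every rescaling the medians of the glucocorticoid-induced, immediate early, rod, adipocyte, microglia and macrophage, and fibrillar matrix lists kept their sign and stayed within 0.1 of the value given. Of the 844 list genes kept, 839, 827 and 807 had the same sign under the 3 rescalings, the last of which left out the lens, muscle, erythroid and surface epithelium genes from the sums. With a pseudocount of 0.1, 21 of the 44 named genes moved by more than their counting error and none reversed. Depth limits genes near 1 FPKM, where counting alone gives a log2 ratio without the added 1 an error of 0.39. No setting replaces replicates.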

Other observations

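Tissues around the retina differed by small amounts. All 16 crystallin genes were above 0 (median 0.20), from Cryba4 at 0.06 to Cryga at 0.61 (1628 and 2487 FPKM), and 15 of 17 lens fibre genes lay above 0. Gamma crystallins are near-identical copies, so their single values are uncertain. Skeletal muscle genes were mostly lower at 7 days (median -0.17, 32 of 38 below 0), and the fast isoform Myh1 (43.1 and 27.9 FPKM, change -0.61) and the titin cap gene Tcap (198 FPKM at 3 h and 121 at 7 days, beside 89.6 in the control and 101 at 24 h) were furthest from 0, whereas Myh2, Myh3 and Myh4 were within 0.1 of it. Globin genes were lower, with Hba-a2 at 52.9 FPKM at 3 h and 25.99 at 7 days, beside 45.8 in the control and 26.9 at 24 h. Hbb-b1 was at 34.6 FPKM at 3 h and 17.2 at 7 days, beside 28.5 in the control and 17.9 at 24 h, and Beta-s, an allele of the beta globin locus, at 207 FPKM at 3 h and 103 at 7 days, beside 177 in the control and 110.1 at 24 h. Globin copies are uncertain for the same reason. The keratin genes Krt14 (68.6 FPKM at 3 h and 41.7 at 7 days, beside 32.3 in the control and 52.7 at 24 h) and Krt17 (5.23 FPKM at 3 h and 2.81 at 7 days, beside 2.67 in the control and 2.66 at 24 h) were highest at 3 h, while the corneal keratin Krt12 had a change of -0.01 and Krt5 of 0.15. Median changes were 0.26 for 14 chemokine and cytokine genes, 0.089 for 15 melanin genes and 0.11 for 23 genes of the trabecular meshwork and ciliary body.

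The interferon-stimulated and MHC class I list had a median of -0.069 over 27 kept genes, with 11 above 0 and 16 below. Over all kept genes, 49.2% were above 0 and 50.8% below. Changes in this list ran from -0.70 to 0.48. Among its lower genes were Oas2 (5.44 and 2.96 FPKM), Ifit1 (17.8 and 11.3 FPKM), Oas1a (4.91 and 3.06 FPKM) and Isg15 (41.1 and 27.9 FPKM). Their changes were -0.70, -0.61, -0.54 and -0.54. The MHC class I genes H2-K1 and H2-D1 had changes of -0.17 and -0.07. These 6 genes were chosen after their values were seen, as were those that follow. Lalba, the milk protein alpha-lactalbumin, was at 0.247 FPKM at 3 h and 3.38 at 7 days, beside 0.301 in the control and 5.38 at 24 h, and so had the same order of samples as Edn2 at lower levels. Ppef2, a photoreceptor phosphatase (51.8 FPKM at 3 h and 24.9 at 7 days, beside 35.2 in the control and 23.5 at 24 h), Nt5e, the ectonucleotidase CD73 (54.2 FPKM at 3 h and 25.7 at 7 days, beside 39.5 in the control and 26.6 at 24 h), and Ankrd33b (73.4 FPKM at 3 h and 35.2 at 7 days, beside 48.4 in the control and 49.4 at 24 h) were lower by just over 1 log2 unit, a larger change than in any gene of the rod list. Pck1, the enzyme that commits carbon to glucose synthesis, was at 2.65 FPKM at 3 h and 0.306 at 7 days, beside 0.3903 in the control and 1.04 at 24 h. The haptoglobin gene Hp was at 2.95 FPKM at 3 h and 0.662 at 7 days, beside 0.756 in the control and 1.51 at 24 h, both highest at 3 h and both kept only through that value. Mobp, a myelin gene, was at 3.36 FPKM at 3 h and 1.15 at 7 days, beside 3.65 in the control and 3.26 at 24 h, where the 7-day sample alone was low. The noncoding gene Gm4792 had the largest change of all, -3.05 (38.6 FPKM at 3 h and 3.799 at 7 days, beside 17.3 in the control and 4.31 at 24 h), and the pseudogenes Pisd-ps1 (-1.48) and Pisd-ps3 (1.04) differed in opposite directions.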
